A study of Mus musculus with 24 samples.

Results

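Collagens and the other genes of the stromal matrix were followed across the stages V, dp12, dp18 and Lac10 in wild-type and mutant mice, in a series on BRCA1 and pregnancy. The 44 listed genes were looked up by gene symbol, and 42 of them had a probe set that carries their symbol alone, 1 per gene, out of 22180 such genes on the array. Fbn1 (fibrillin) and Loxl2 (a lysyl oxidase) had none and are not represented. All 42 passed the filter on low values, which kept 15234 genes in all, and 40 of the 42 lay above the array's median on every one of the 24 arrays. They fall into 8 roles: 6 fibrillar collagens, 7 basement membrane genes, 7 other collagens, 4 genes of fibronectin, fibulins and elastin, 5 proteoglycans, 5 matricellular proteins, 4 genes of fibre assembly and 4 markers of stromal cells.

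The data are 24 single-colour Affymetrix arrays of RNA that form 8 groups of 3, since both genotypes were sampled at every stage. All mice had a mixed background of FVB (80%), 129SVEV (10%) and Black Swiss (10%) in the labels. The titles of most dp18 and Lac10 arrays also give a colour, white or brown in wild type and white or golden in mutants. What the colour refers to is not stated. V stands for virgin in the sample titles, and dp is read here as pregnancy and Lac as lactation, and the codes are printed as labelled because the design text counts their numbers in months. Which tissue was taken, which allele the mutants carry and how old the mice were is not stated in the labels. The labels' treatment text speaks of a pull-down with tagged PAB-1, whereas their extraction text speaks of total RNA, and this was not settled. Nearly every array carries a body weight in its label, most of them different within a group, and each mutant array carries a number of its own, which points to separate animals although the labels do not say so in words. Each p-value rests on the array-to-array spread.

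The stromal matrix is the scaffold around epithelium, vessels and fat. Fibroblasts secrete fibrillar collagens as precursors, proteases and lysyl oxidases turn these into cross-linked fibres, and small proteoglycans set how the fibrils grow. Epithelium rests on a basement membrane of type IV collagen, laminins and nidogen. In the mammary gland ducts and alveoli expand into this stroma during pregnancy.

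Levels are log2 RMA values, and a difference is the later minus the earlier stage or the mutant minus the wild type, on the same log2 scale, with the standard error (SE) of a limma fit over all 24 arrays. "Called" means a Benjamini-Hochberg adjusted p under 0.05 over the 15234 genes. Precision is limited by the 3 arrays per group, and the median SE of such a comparison was 0.3. The mean level of the 42 genes over the arrays ran from 6.03 (Col8a1) to 11.24 (Thbs1), with a median of 8.17 against 6.67 over all genes tested.

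Some arrays stood apart. The median correlation with the other arrays was 0.837 in wild-type dp18 replicate 1, 0.863 in mutant dp18 replicate 1 and 0.799 in mutant Lac10 replicate 2, and at least 0.907 in the rest. The wild-type virgin arrays came next, at 0.91, 0.92 and 0.907. They lay just above the minimum of 0.9 and were kept in every wild-type comparison with V, except where single arrays were left out. The casein gene Csn1s2b went against the stage label on 2 arrays: its level was 6.47 in the array labelled wild-type Lac10 replicate 1 against 11.47 and 11.24 in the other Lac10 arrays of wild type, and 10.37 in the array labelled mutant dp18 replicate 2 against 6.30 and 5.93 in its group. Where leaving these arrays out turned a direction or a call, that value is given beside the result. Centring each array on 22 housekeeping genes moved the median of all genes by more than 0.1 in most comparisons, by up to -0.51 in wild type from V to dp12. The median of all genes is therefore given beside that of the matrix genes, since centring does not change the gap between them. The housekeeping list did not keep 1 level across the groups. Its mean was 9.20 for wild-type and 9.27 for mutant virgins, 9.47 and 9.48 at dp12, and 9.20 and 8.94 at Lac10. Whether splits and calls that changed with housekeeping centring did so through shifts of the housekeeping genes was not tested.

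At dp12 the matrix genes lay lower in mutants than in wild type. Of the 42 genes 41 had a lower mean in mutants, with a median log2 difference of -0.50 against a median of -0.003 over all genes, and only Tnc (tenascin-C) had a higher one. In 24 of the 42 all 3 mutant arrays lay below all 3 wild-type arrays, compared with 10.2% of all genes, and in 1 they lay above, compared with 6.69%. Not 1 of the 42 was called at dp12, where 0% of all genes were called in either direction and the adjusted p was 1 for every member. In RNA from a whole sample, fewer cells of a type and less RNA per cell cannot be told apart.

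At an unadjusted p under 0.05 in limma, 6 members were lower at dp12 and none higher, against 1.21% of all genes in either direction. With arrays weighted by their quality 5 members were called lower, namely Fn1, Col5a2, Eln, Vcan and Col14a1, and none higher, against 0.604% and 0.348% of all genes. A fit to the 6 dp12 arrays alone, chosen after seeing the data, called none. In that fit 30 members were lower at an unadjusted p under 0.05, compared with 7.38% of all genes, and the smallest adjusted p of a member was 0.112. The count of 24 was 27 with housekeeping centring and ran from 24 to 36 when single arrays were left out, with 36 without mutant dp12 replicate 3. Leaving out an array can only keep or raise this count, so that range does not measure its stability. The share of all genes without that array was not counted. The 42 genes did not vary independently between arrays. Replicate 3 was the highest of its group in 35 of 42 genes in wild type and in 38 of 42 in mutants, against 35% and 35.8% of all genes.

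**Figure D1:**
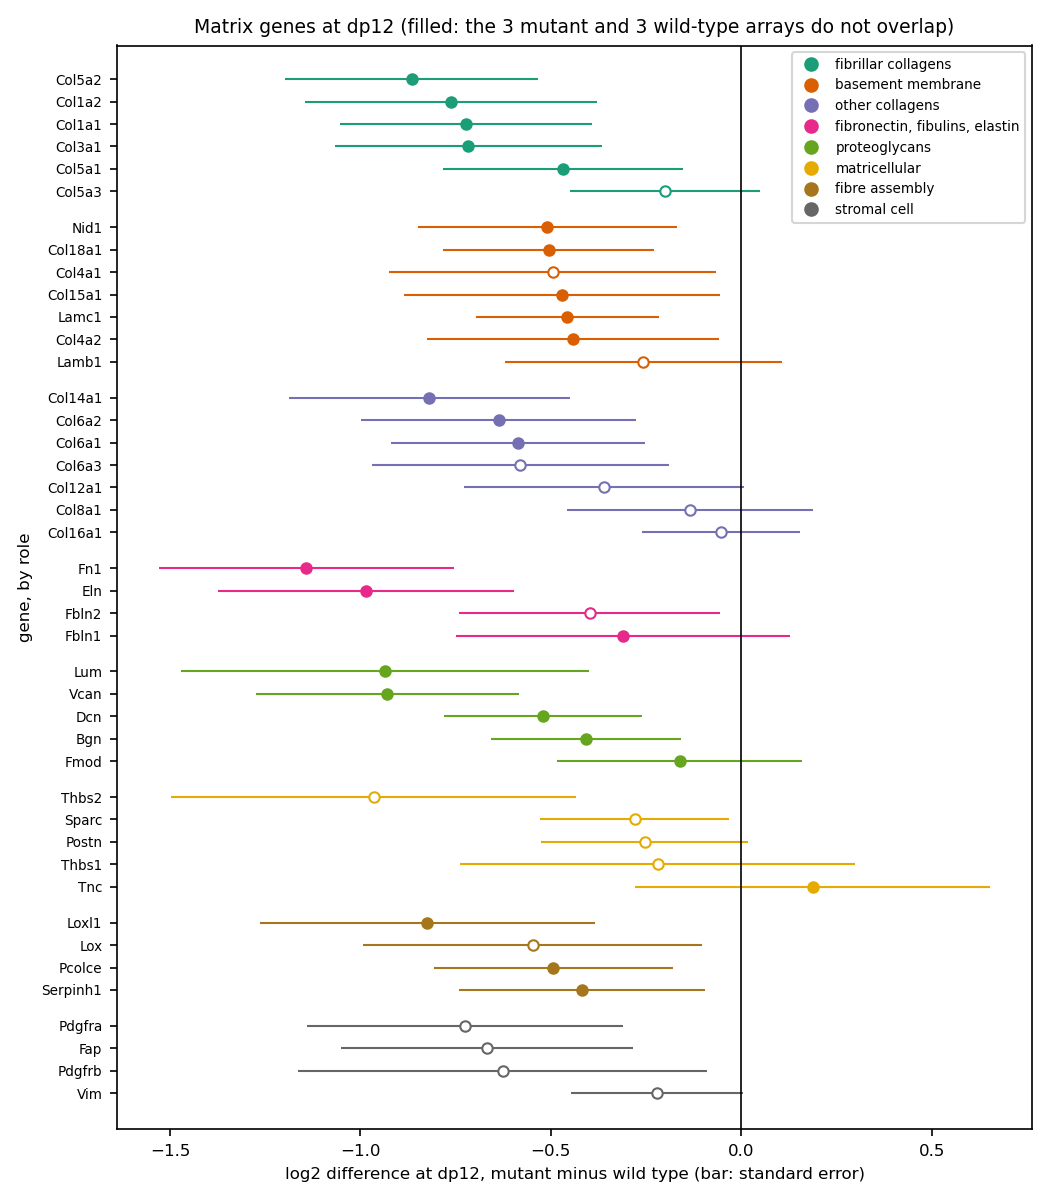
Log2 difference at dp12 (x axis, mutant minus wild type) of 42 matrix genes grouped by role (y axis, colours); points are differences of group means of 3 arrays, bars the standard error of the fit, and filled points mark genes whose 3 mutant and 3 wild-type arrays do not overlap. All points except Tnc lie left of 0, and 24 of these are filled.

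Fibrillar collagens, which build the tensile fibres, were lower in mutants at dp12 in 6 of 6 genes, with a median of -0.72. Col1a1, the main chain of type I collagen, was at 10.28, 10.11 and 10.73 on the wild-type arrays and at 9.39, 9.59 and 9.97 on the mutant arrays. The highest mutant array thus lay below the lowest wild-type one, and the difference was -0.72 (SE 0.33, limma adjusted p = 1). Col3a1, the type III chain of loose connective tissue, was at 9.96, 10.06 and 10.54 in wild type and at 9.24, 9.34 and 9.83 in mutants. Its difference was -0.72 (SE 0.35) and its groups did not overlap either. Col1a2 (-0.76), Col5a2 (-0.87) and Col5a1 (-0.47) also separated the groups, while Col5a3 (-0.20) did not. The size of a difference depended on the probe set in some genes. The second probe set of Col1a2 differed by -0.77 at dp12 and that of Col5a1 by -0.08. For members of other roles it differed by -1.01 in Col6a1, -0.73 in Vim, -0.59 in Nid1, -0.57 in Bgn and -0.04 in Fmod.

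Fibronectin, the adhesive glycoprotein on which cells lay down collagen, had the largest difference of the 42 genes at dp12. Fn1 was at 11.00, 10.83 and 11.44 on the wild-type arrays and at 9.69, 9.82 and 10.34 on the mutant arrays. Every mutant array lay below every wild-type array, with a difference of -1.14 (SE 0.39, limma adjusted p = 1). Vcan, the large proteoglycan versican of provisional matrix, was at 8.34, 7.82 and 8.57 in wild type and at 7.05, 7.13 and 7.77 in mutants. Its difference was -0.93 (SE 0.34, limma adjusted p = 1), again with no overlap. Elastin (Eln) differed by -0.99 (SE 0.39) and the fibril-binding proteoglycan lumican (Lum) by -0.94 (SE 0.54), both without overlap.

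Proteoglycans and basement membrane genes had the same sign. Decorin (Dcn), which binds collagen fibrils, was at 11.07, 11.37 and 11.50 in wild type and at 10.78, 10.59 and 11.01 in mutants. The groups lay close without overlap, and the difference was -0.52 (SE 0.26). All 5 proteoglycans were lower without overlap, Bgn by -0.41 and Fmod by -0.16. Among 7 basement membrane genes 7 were lower, 5 without overlap, with a median of -0.47. Of these, Col4a1, which forms the type IV network with Col4a2, was at 9.27, 8.87 and 9.35 in wild type and at 8.65, 8.45 and 8.91 in mutants, and its groups overlapped by 1 array on each side. Col18a1 (-0.51), the nidogen gene Nid1 (-0.51), Col15a1 (-0.47), the laminin gene Lamc1 (-0.46) and Col4a2 (-0.44) separated the groups, and the laminin gene Lamb1 (-0.26) did not.

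Among the other collagens 7 of 7 were lower at dp12, 3 of them without overlap: the fibril-associated Col14a1 (-0.82) and the microfibrillar Col6a1 (-0.59) and Col6a2 (-0.64). Col6a3 (-0.58), Col12a1 (-0.36), Col8a1 (-0.14) and Col16a1 (-0.05) overlapped. Of the genes of fibre assembly, the lysyl oxidase Loxl1 (-0.82), the procollagen protease enhancer Pcolce (-0.49) and the collagen chaperone Serpinh1 (-0.42) were lower without overlap. Lox, the founding lysyl oxidase, was at 7.28, 7.37 and 8.04 in wild type and at 7.11, 6.62 and 7.32 in mutants. One mutant array lay within the wild-type range, and the difference was -0.55 (SE 0.45). Fbln1 (-0.31) did not overlap, and Fbln2 (-0.40) did.

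The 4 stromal cell markers were lower as well, but each overlapped. Pdgfra, the receptor that marks fibroblasts, was at 8.30, 8.72 and 9.03 in wild type and at 7.71, 7.63 and 8.54 in mutants. Only the third mutant array reached the wild-type range, and the difference was -0.72 (SE 0.41). Fap differed by -0.67, the pericyte and fibroblast receptor Pdgfrb by -0.63 and the intermediate filament gene Vim by -0.22. The matricellular proteins, which signal to cells rather than bear load, held the 1 gene with a higher mean in mutants. Tnc was at 8.50, 8.37 and 8.43 in wild type and at 8.65, 8.69 and 8.52 in mutants, so every mutant array was higher, by 0.19 (SE 0.47). Thbs2 (-0.96), Sparc (-0.28), Postn (-0.25) and Thbs1 (-0.22) were lower with overlap.

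Some other lists were also lower in mutants at dp12, and some were not. Of 22 further fibroblast genes 21 were lower in mutants, with a median of -0.39, 10 of them without overlap. The mean level of that list was 7.56 to 7.87 on the wild-type and 7.02 to 7.44 on the mutant arrays. Endothelial genes were lower in 15 of 15, with a median of -0.22 and list means of 7.85 to 8.35 against 7.59 to 7.91. Pericyte genes were lower in 8 of 8 with a median of -0.29. Luminal epithelial genes had a median of -0.06, with 12 of 19 lower and list means of 9.51 to 9.57 against 9.42 to 9.47, and adipocyte genes a median of 0.04 with 6 of 17 lower. The mean of the list was higher in mutants for milk secretory genes (10.32 against 9.97) and basal and myoepithelial genes (9.04 against 8.88). It was also higher for lymphocyte genes (5.832 against 5.515) and mitosis genes (8.17 against 8.07). It was lower for macrophage and neutrophil genes (7.289 against 7.365) and skeletal muscle genes (5.96 against 6.08). Among all the lists of this paragraph, the means of the fibroblast, pericyte, luminal epithelial and skeletal muscle lists did not overlap between the genotypes. Those of the others did. The part of these cell types in the difference was not tested. No dp12 array was among those of low correlation, and each had a median correlation of at least 0.96.

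**Figure D2:**
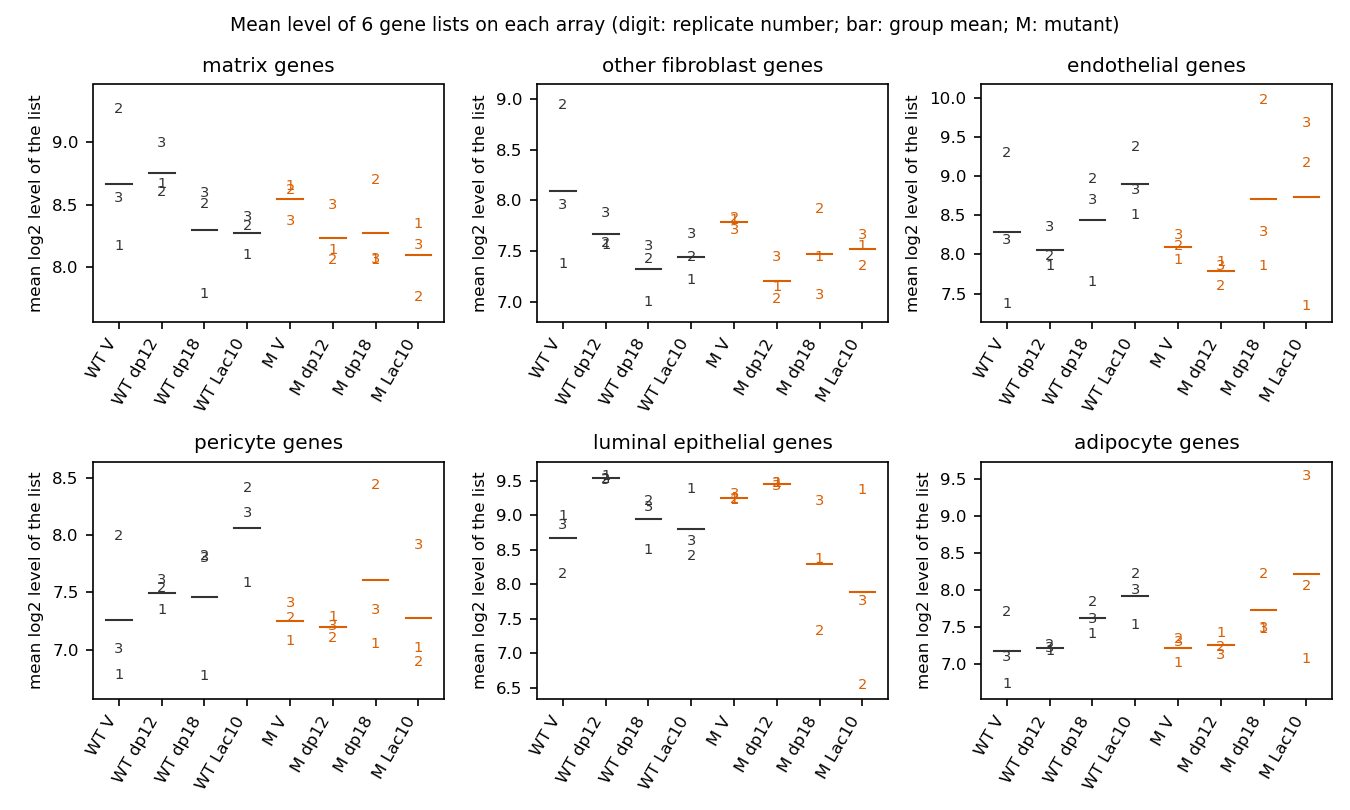
Mean log2 level (y axis) of 6 gene lists on each array, by group (x axis); digits are replicate numbers and bars group means of 3 arrays. At dp12 the matrix list reached 8.60 to 9.00 on the wild-type and 8.06 to 8.50 on the mutant arrays, while wild-type virgin replicate 2 at 9.26 was the highest array of all.

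Genes of the surrounding pathway also leaned lower in mutants at dp12, with none called. Of 26 enzymes and chaperones of collagen processing 20 were lower with a median of -0.27, and of 18 other basement membrane genes 14 were lower with a median of -0.25. Of 19 genes of TGF-beta signalling, the main inducer of matrix genes in fibroblasts, 18 were lower with a median of -0.22. Of 19 matrix receptors, mostly integrins and syndecans, 17 were lower with a median of -0.19.

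In virgins no matrix gene was called between the genotypes with all 24 arrays (background 0.0263% higher and 0% lower), and the 3 of smallest p were higher in mutants. Col8a1, a short-chain collagen of vessel walls, was at 6.40, 6.93 and 6.15 in wild type and at 8.41, 7.33 and 7.30 in mutants. All mutant arrays were higher, by 1.19 (SE 0.32, limma adjusted p = 0.209). Col12a1, which coats collagen fibrils, was at 6.66, 6.74 and 6.78 in wild type and at 7.43, 8.00 and 7.61 in mutants, higher by 0.95 (SE 0.37, adjusted p = 0.265). Tnc was at 6.52, 7.79 and 7.11 against 7.91, 8.63 and 8.25, higher by 1.12 (SE 0.47, adjusted p = 0.276).

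Without the 3 arrays of lowest correlation, none of which is a virgin array, limma called these 3 genes higher in mutant virgins (adjusted p = 0.0127 for Col8a1, 0.0114 for Col12a1 and 0.0194 for Tnc). That fit also called 14.9% of all genes higher, so 3 of 42 is below the background share. Among the 42 genes 29 were lower and 13 higher in mutant virgins, with a median of -0.18 against 0.20 over all genes. Without overlap 4 were higher and 1 lower, compared with 25.5% and 8.64% of all genes. At an unadjusted p under 0.05, 3 members were higher and 2 lower, against 12.5% and 3.3% of all genes. Array weights called 4 higher and 1 lower, against 28.3% and 8.26% of all genes. The share of members higher was thus below that of all genes by each of these counts. The wild-type virgin arrays spread widely. The median SD over the 42 genes was 0.65 there and 0.29 in mutant virgins, and replicate 2 was the highest in 36 of the 42 genes. Of the cell type lists only luminal epithelium separated the genotypes in virgins, with list means of 8.14 to 8.98 in wild type and 9.21 to 9.31 in mutants. Skeletal muscle ran from 5.98 to 8.07 and from 6.00 to 6.59, and macrophages and neutrophils from 6.24 to 8.80 and from 6.76 to 7.31. The part of these cell types in the virgin values was not tested.

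At dp18 the matrix genes did not separate by genotype. Of the 42 genes 23 were higher and 19 lower in mutants with a median of 0.03, and none was called (background 0% in both directions) or reached an unadjusted p under 0.05 in limma, or was called with array weights. Only Lox had groups without overlap, at 6.62, 6.98 and 7.58 in wild type and at 6.44, 6.48 and 6.47 in mutants, against 1.07% of all genes lower and 1.27% higher without overlap. The members' split was not stable. It was 10 higher and 32 lower with housekeeping centring, 3 higher and 39 lower (median -0.22) without the 2 arrays whose casein level goes against the label, and 11 higher and 31 lower (median -0.13) without the 3 arrays of lowest correlation. The array labelled mutant dp18 replicate 2 was the highest of its group in 36 of 42 matrix genes, against 39.5% of all genes, and its luminal epithelial list mean was 7.32 beside 8.37 and 9.20. The 2 genes of smallest p were Vcan (-0.63, SE 0.34) and Col16a1 (-0.30, SE 0.21). Vcan was at 6.80, 7.57 and 7.87 in wild type and at 6.81, 6.60 and 6.95 in mutants, and Col16a1 at 6.59, 6.92 and 6.96 against 6.42, 6.40 and 6.75.

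At Lac10 no matrix gene was called between the genotypes, where 0% of all genes were called higher and 0.236% lower. Tnc was at 8.69, 9.20 and 9.25 in wild type and at 8.79, 6.03 and 7.72 in mutants. The groups overlapped through mutant replicate 1, and the lowest value was that of replicate 2, the array of lowest correlation. The difference was -1.53 (SE 0.47, limma adjusted p = 0.112). Col4a1 was at 8.82, 9.57 and 9.21 in wild type and at 7.86, 7.79 and 8.90 in mutants, lower by -1.02 (SE 0.43, adjusted p = 0.234).

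Fn1 and Dcn had the opposite sign at Lac10 from dp12. Fn1 was at 9.24, 9.19 and 9.52 in wild type and at 10.09, 9.56 and 9.82 in mutants, a difference of 0.50 (SE 0.39) without overlap. Dcn was at 10.84, 10.70 and 11.02 against 11.37, 11.08 and 11.24, a difference of 0.38 (SE 0.26), also without overlap. Members without overlap numbered 3 higher and 1 lower, against 3.24% and 12.4% of all genes. The split of 16 higher and 26 lower (median -0.13, and -0.19 over all genes) turned to 33 higher and 9 lower with housekeeping centring and to 22 higher and 20 lower (median 0.03) without the 3 arrays of lowest correlation. At an unadjusted p under 0.05, 4 members were lower and none higher, against 14.2% and 3.35% of all genes. Array weights called 6 lower, namely Col4a1, Col4a2, Lamb1, Nid1, Col5a3 and Sparc, and none higher, against 15.3% and 6.44% of all genes, so the members' share was near the background. Without mutant Lac10 replicate 1, 2 members were called, and the share of all genes was not counted there.

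Averaged over the stages 40 of the 42 genes had a negative difference, with a median of -0.23 against -0.002 over all genes, and 0 were called (background 0% in both directions; 1 member higher and 4 lower at an unadjusted p under 0.05, against 1.5% of all genes each way; 0 called with array weights). The 2 genes of smallest p were Eln (-0.51, SE 0.19) and Col8a1 (0.40, SE 0.16), both with an adjusted p of 1. A moderated F test of whether the genotype difference was equal at the 4 stages called no member (background 0.00656%), with 2 at an unadjusted p under 0.05, Tnc (adjusted p = 0.323) and Fn1 (adjusted p = 0.371), against 12.4% of all genes. Array weights called 12 members in that test, among them Tnc (adjusted p = 0.00149) and Fn1 (adjusted p = 0.00836), against 39.3% of all genes. Whether the genotype difference was larger at dp12 than at the other stages was not tested.

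The stage of the highest and lowest mean differed from gene to gene. In wild type 17 genes had their highest group mean at V and 17 at dp12, 2 at dp18 and 6 at Lac10, while 18 had their lowest at Lac10 and 14 at dp18. In mutants 26 were highest at V, 4 at dp12, 11 at dp18 and 1 at Lac10, and 20 were lowest at Lac10 and 12 at dp12. Over all genes V held the highest mean in 22.4% in wild type and 30% in mutants, and dp12 in 43.2% and 39.2%. Lac10 held the lowest in 16.8% and 46.6%, so that in mutants the members' share at Lac10 was near that of all genes.

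**Figure D3:**
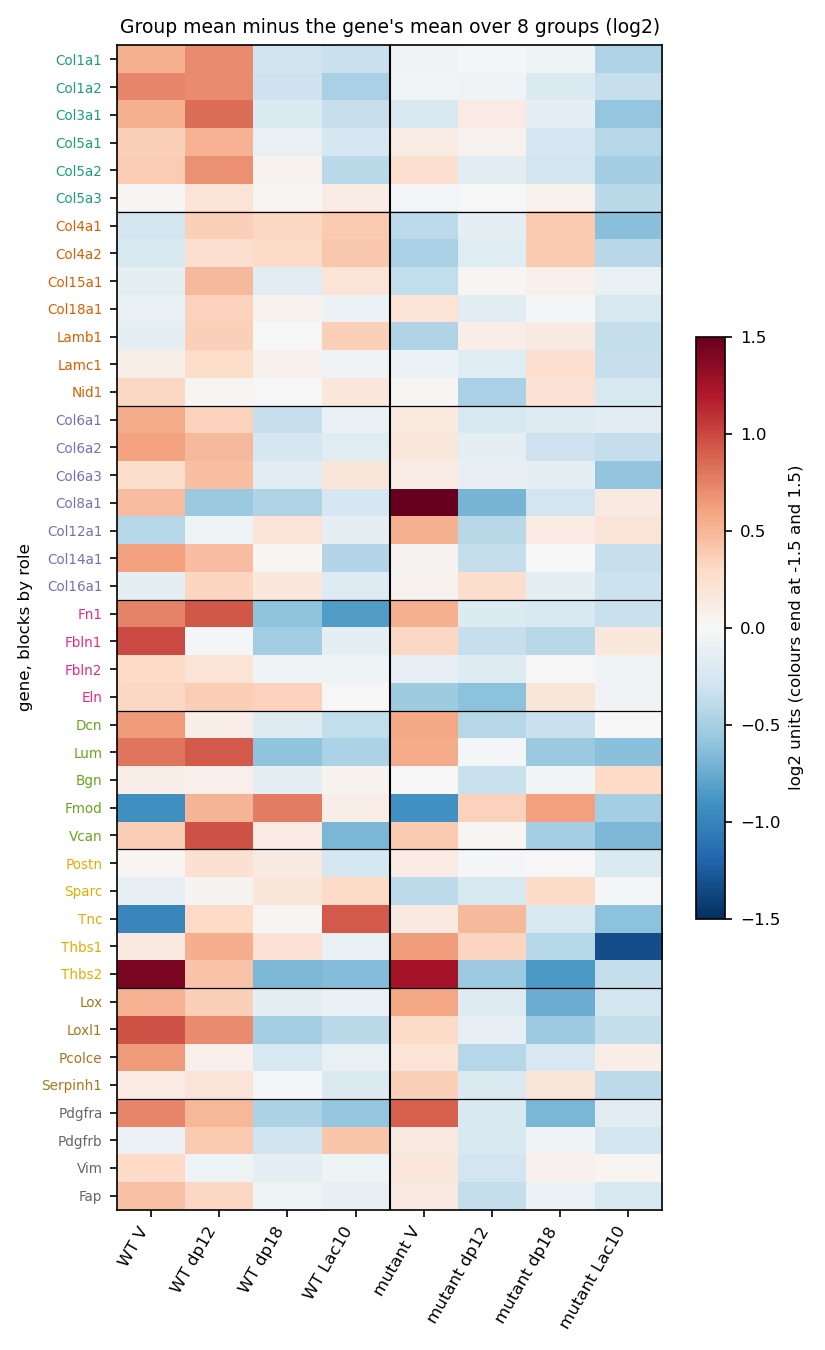
Group mean of each of 42 matrix genes (rows, in blocks by role) minus that gene's mean over the 8 groups (columns), in log2 units from blue (lower) to red (higher). Col1a1, Col1a2 and Col3a1 are reddest at V and dp12 in wild type, Thbs2 is red at V in both genotypes, and Fmod is blue at V in both.

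From V to dp12, Fmod rose and Col8a1, Dcn and Thbs2 fell when both genotypes were averaged. Fmod, fibromodulin, a small proteoglycan that binds collagen fibrils, was at 7.35, 6.87 and 6.14 in wild-type virgins and at 8.26, 8.28 and 8.11 at dp12. In mutants it was at 6.58, 6.67 and 7.15 in virgins and at 8.04, 8.04 and 8.07 at dp12. All dp12 arrays lay above all virgin arrays in both genotypes, and Fmod rose by 1.43 in wild type (SE 0.32, limma adjusted p = 0.0172), by 1.25 in mutants (SE 0.32, adjusted p = 0.0281) and by 1.34 on average (SE 0.23, adjusted p = 0.00055). The average rise was called in all 33 alternatives, with differences from 0.89 to 1.58. The other probe set of Fmod differed by 0.74 in wild type and 0.73 in mutants.

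Col8a1 fell over that step. In mutants it was at 8.41, 7.33 and 7.30 in virgins and at 5.16, 5.45 and 5.37 at dp12, and in wild type at 6.40, 6.93 and 6.15 and then at 5.47, 5.36 and 5.55. Neither genotype's groups overlapped. Col8a1 fell by 2.35 in mutants (SE 0.32, adjusted p = 0.000264) and fell by 1.69 on average (SE 0.23, adjusted p = 6.02e-05), both called in all 33 alternatives, while the wild-type difference of -1.03 (SE 0.32) had an adjusted p of 0.0582. In wild type it was called without the 3 arrays of lowest correlation (adjusted p = 0.0124), with array weights and with housekeeping centring.

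Dcn was at 11.86, 12.00 and 11.52 in mutant virgins and at 10.78, 10.59 and 11.01 at dp12. It fell by 1.00 in mutants (SE 0.26, adjusted p = 0.0307), a call that ended without mutant V replicates 1 or 2, without any single mutant dp12 array or with array-median centring (adjusted p up to 0.172). In wild type it was at 11.18, 12.50 and 11.91 in virgins and at 11.07, 11.37 and 11.50 at dp12, overlapping, with a difference of -0.55 (SE 0.26, adjusted p = 0.15). On average it fell by 0.78 (SE 0.18, adjusted p = 0.0071), in all 33 alternatives. Thbs2, a thrombospondin that binds matrix proteases, was at 8.73, 10.61 and 10.09 in wild-type and at 8.97, 10.20 and 9.74 in mutant virgins. At dp12 it was at 8.71, 8.07 and 9.66 and at 7.64, 7.59 and 8.32. Its average fall was 1.39 (SE 0.38, adjusted p = 0.0162), which was not called without wild-type dp12 replicate 2 or mutant V replicate 2, with an adjusted p of up to 0.055.

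The call counts for this step were 1 higher and 0 lower in wild type, 1 higher and 2 lower in mutants, and 1 higher and 3 lower on average. Over all genes 5.91% were called higher and 0.538% lower in wild type, 3.02% and 1.42% in mutants, and 13.0% and 2.80% on average. The split of all called genes depended on the scaling: with housekeeping centring 0.525% were higher and 0.604% lower in wild type, 1.90% and 10.4% in mutants, and 4.46% and 20.0% on average. The members called were then 0 higher and 1 lower in wild type, 0 and 7 in mutants, and 1 and 15 on average. The members' median was -0.11 below that of all genes in wild type, with 25 genes higher and 17 lower (5 and 37 with housekeeping centring). In mutants it was -0.35 below, with 11 higher and 31 lower (2 and 40). In mutants 13 members were lower and 3 higher without overlap, against 15.3% and 22.1% of all genes. With that centring Fmod was called in neither genotype alone. The rise of Fmod within a genotype also lost its call when single arrays of its own comparison were left out: wild-type V replicates 2 or 3 and dp12 replicates 1 or 2, and mutant V replicates 1 or 2 or any single mutant dp12 array (adjusted p up to 0.165 and 0.194). Leaving out wild-type V replicate 1 raised the average count to 7, and leaving out mutant Lac10 replicate 2 raised the wild-type count to 3. The mutant count fell to 1 without V replicate 2 or any single dp12 array. The share of all genes called was not counted for single arrays left out.

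Promoters are shown for the called genes of this step that RefSeq's table holds, Col8a1 and Thbs2, which fell, and Fmod, which rose, each as the 250 bases before the annotated start, 5′ to 3′ on the gene's strand (build GRCm38.p6). Capitals mark the motif CCAAT, the GC box GGGCGG and the motif TATAAA on either strand, which did not overlap here. Col8a1 is at chr16:57754738-57754987 on the minus strand, Thbs2 at chr17:14694263-14694512 on the minus strand and Fmod at chr1:134037004-134037253 on the plus strand.
Col8a1: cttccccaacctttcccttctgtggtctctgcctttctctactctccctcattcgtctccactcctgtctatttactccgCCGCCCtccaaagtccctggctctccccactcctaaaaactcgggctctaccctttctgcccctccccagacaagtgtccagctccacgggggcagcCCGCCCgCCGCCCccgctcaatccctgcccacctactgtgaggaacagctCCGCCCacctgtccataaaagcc
Thbs2: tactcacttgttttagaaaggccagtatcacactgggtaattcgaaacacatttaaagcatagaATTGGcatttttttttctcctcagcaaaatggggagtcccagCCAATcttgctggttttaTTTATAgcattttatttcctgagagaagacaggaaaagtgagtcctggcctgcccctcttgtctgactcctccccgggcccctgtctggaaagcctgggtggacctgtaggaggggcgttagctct
Fmod: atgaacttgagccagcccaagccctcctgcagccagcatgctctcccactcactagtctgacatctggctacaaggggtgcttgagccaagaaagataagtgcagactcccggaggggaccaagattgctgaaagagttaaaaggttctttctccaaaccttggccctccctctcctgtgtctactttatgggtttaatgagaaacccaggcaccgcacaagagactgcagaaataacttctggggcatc
The Col8a1 stretch holds 4 GC boxes and neither other motif, that of Thbs2 holds 2 CCAAT and 1 TATAAA, and that of Fmod holds none of the 3. The table held 34 windows for 29 of the 44 listed genes. GGGCGG was in 58.8% of these windows and in 32.7% of all 32851 windows, CCAAT in 32.4% and 33.8%, and TATAAA in 17.6% and 12.4%. These are letter matches and no sites of binding. Col4a1 and Col4a2 are annotated on opposite strands of chromosome 8 with starts at 11312826 and 11312805, which lie 21 bases apart, and their dp12 genotype differences were -0.49 and -0.44.

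From dp12 to dp18 the fibrillar collagens and fibronectin were lower in wild type, without a call over all genes. Fn1 was at 11.00, 10.83 and 11.44 at dp12 and at 8.84, 9.81 and 9.99 at dp18, with a difference of -1.54 (SE 0.39, limma adjusted p = 0.484). Col1a1 was at 8.67, 9.78 and 9.64 at dp18, all below its dp12 arrays, with a difference of -1.01 (SE 0.33, adjusted p = 0.484). Replicate 1, one of the arrays of low correlation, was the lowest of the dp18 group in 39 of 42 genes, against 69.1% of all genes. Of the 42 genes 37 were lower (20 with housekeeping centring), with a median of -0.34 against -0.21 over all genes, and 28 were lower (median -0.17 against -0.04) without the 3 arrays of lowest correlation. Without overlap 13 were lower, against 18.9% of all genes lower and 5.49% higher. None was called (background 0% in both directions), 8 were lower at an unadjusted p under 0.05, against 8.26% of all genes, and array weights called 2 higher and 8 lower, against 6.66% and 11.4%.

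In mutants the direction of that step depended on the arrays and the scaling. Of the 42 genes 24 were higher and 18 lower, with a median of 0.05 against -0.17 over all genes. The split was 33 and 9 with housekeeping centring, and 14 and 28 (median -0.23 against -0.26 over all genes) without the 2 arrays whose casein level goes against the label. None was called (background 0% in both directions; 1 higher at an unadjusted p under 0.05, against 1.87% of all genes; 0 with array weights). Sparc, a collagen-binding glycoprotein, was at 9.24, 9.16 and 9.43 at dp12 and at 9.68, 10.24 and 9.47 at dp18, all higher, by 0.52 (SE 0.25, limma adjusted p = 0.365). Nid1, which links laminin to type IV collagen, was at 9.94, 9.65 and 10.22 and then at 10.22, 11.40 and 10.30, higher by 0.70 (SE 0.34, adjusted p = 0.366). Averaged over the genotypes, no member was called from dp12 to dp18 (background 0.177% higher and 1.88% lower, and 26 genes higher and 5 lower with housekeeping centring; 9 lower at an unadjusted p under 0.05, against 24.4% of all genes; 4 higher and 3 lower with array weights, against 4.98% and 11.8%). Fn1 had the smallest p, with a difference of -0.78 (SE 0.28, adjusted p = 0.092), followed by Vcan (-0.68, SE 0.24, adjusted p = 0.0966).

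From dp18 to Lac10 no member was called in wild type, in mutants or on average, and 0% of all genes were called in any of them. At an unadjusted p under 0.05 the members numbered 1, 4 and 2, against 8%, 2.95% and 4.63% of all genes. Array weights called 2 higher and 8 lower in wild type, against 10.0% and 15.6% of all genes, and none in mutants or on average. The medians were 0.004 in wild type, -0.18 in mutants and -0.12 on average, against 0.09, -0.10 and 0.004 over all genes. In wild type 21 genes were higher and 21 lower, which became 7 and 35 without the 3 arrays of lowest correlation and 25 and 17 without the 2 arrays whose casein level goes against the label. In mutants the split of 11 and 31 became 22 and 20 without those 2 arrays, and on average 16 and 26 became 22 and 20. In mutants Fmod was at 8.50, 8.06 and 8.41 at dp18 and at 6.85, 7.36 and 7.38 at Lac10, lower on every array, by -1.13 (SE 0.32, limma adjusted p = 0.987). In wild type it was at 8.93, 8.04 and 8.44 and then at 8.53, 7.79 and 7.09, overlapping, with a difference of -0.67 (SE 0.32, adjusted p = 0.625). The average difference of -0.90 (SE 0.23) had an adjusted p of 0.751. Without the 2 arrays whose casein level goes against the label, 1 member was called on average, Fmod (-1.14, SE 0.23, adjusted p = 0.0328), against 0.0853% of all genes lower and 0.243% higher, and leaving out only the first of these arrays, labelled wild-type Lac10, also gave 1 call. The basement membrane laminin Lamc1 was at 9.90, 10.65 and 9.98 in mutants at dp18 and at 9.50, 9.26 and 9.98 at Lac10 (-0.60, SE 0.24, adjusted p = 0.987). In wild type Vcan was at 6.89, 6.39 and 6.51 at Lac10 (-0.81, SE 0.34, adjusted p = 0.562).

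**Figure D4:**
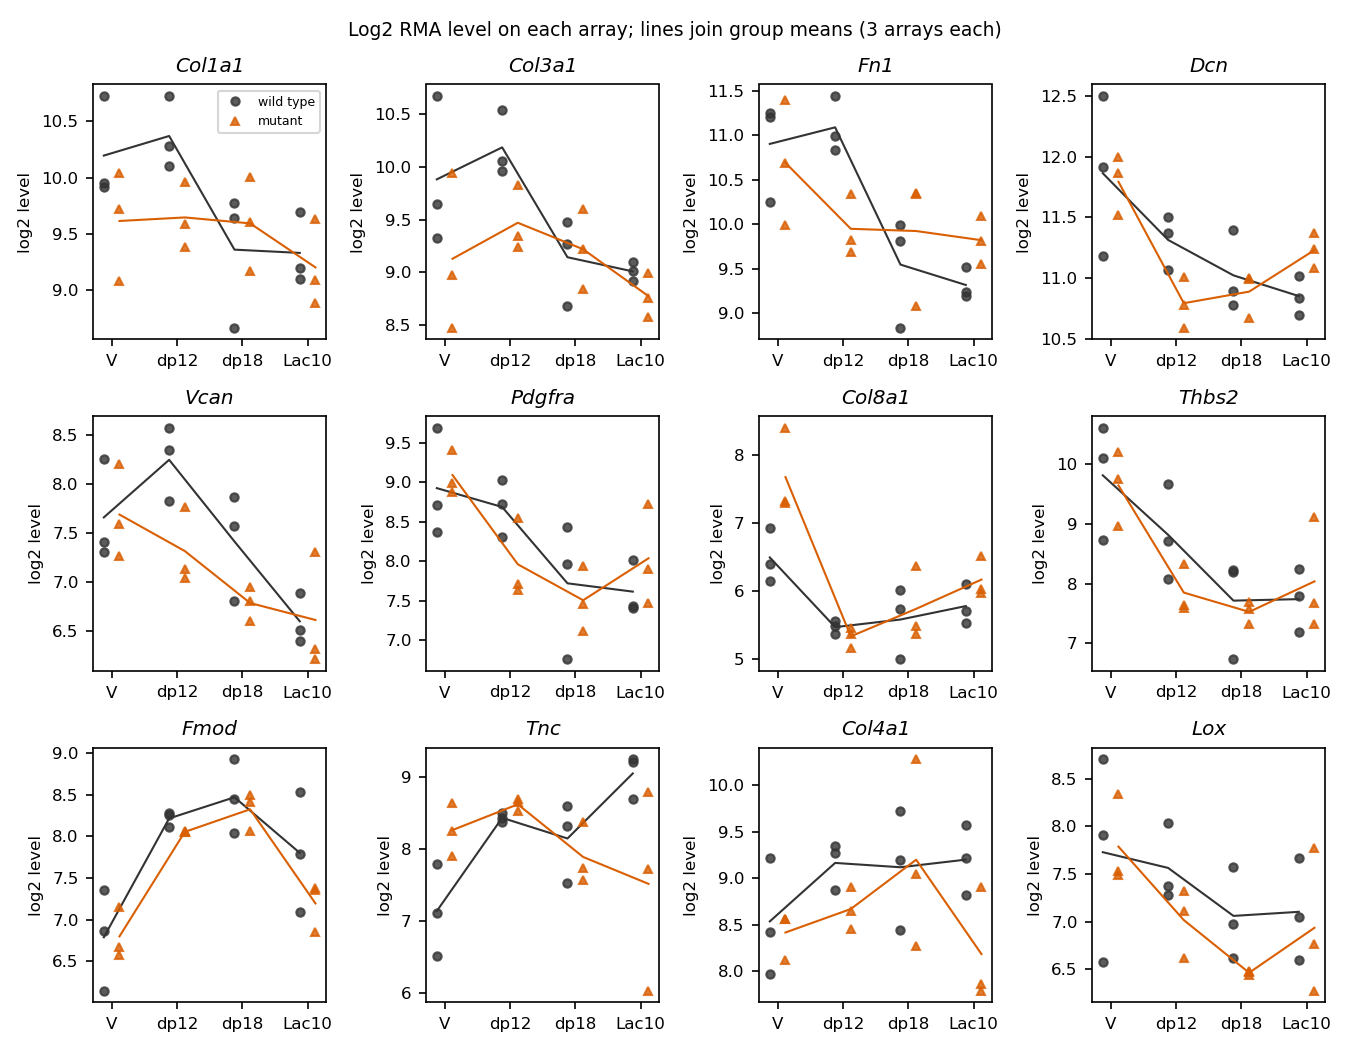
Log2 RMA level (y axis) of 12 matrix genes on each array by stage (x axis); circles are wild-type and triangles mutant arrays, and lines join group means of 3 arrays. Col1a1, Col3a1, Fn1 and Vcan stand higher in wild type at dp12, Col8a1 stands highest in mutant virgins at 7.30 to 8.41, and Fmod lies above its virgin level at dp12 in both genotypes.

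Set against virgins, the Lac10 arrays had lower levels of several stromal genes. Averaged over the genotypes, 6 members fell and none rose, against 3.53% and 3.07% of all genes (with housekeeping centring 14 fell and 0 rose, against 9.76% and 4.50%). Thbs2 fell by 1.84 (SE 0.38, adjusted p = 0.00584), Fn1 fell by 1.23 (SE 0.28, adjusted p = 0.0108) and Pdgfra fell by 1.18 (SE 0.29, adjusted p = 0.0197). Col8a1 fell by 1.11 (SE 0.23, adjusted p = 0.00589), Vcan fell by 1.07 (SE 0.24, adjusted p = 0.0123) and Dcn fell by 0.79 (SE 0.18, adjusted p = 0.0142). The calls of all but Pdgfra were kept in all 33 alternatives. That of Pdgfra ended without wild-type V replicate 2, wild-type Lac10 replicate 2 or mutant V replicate 2 (adjusted p up to 0.0606). The median of the 42 genes was -0.45 against -0.009 over all genes, with 32 lower. The count of called members rose to 14 without wild-type V replicate 1, to 12 without mutant Lac10 replicate 1 and to 11 without wild-type dp18 replicate 1. The share of all genes called without these arrays was not counted, so these rises cannot be read as particular to the members.

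In wild type 3 members fell and 1 rose over this span, with 1.23% of all genes called lower and 6.01% higher. With housekeeping centring 14 members fell and 1 rose, against 4.39% and 4.10%. The median of the 42 genes was -0.37 against 0.15 over all genes. Fn1 was at 10.26, 11.21 and 11.25 in virgins and at 9.24, 9.19 and 9.52 at Lac10. No Lac10 array reached a virgin array, and it fell by 1.59 (SE 0.39, adjusted p = 0.0165). Dcn was at 10.84, 10.70 and 11.02 at Lac10, below its virgin arrays, and fell by 1.01 (SE 0.26, adjusted p = 0.022). Thbs2 was at 7.18, 7.79 and 8.24 at Lac10 and fell by 2.07 (SE 0.53, adjusted p = 0.0219). Tnc was at 6.52, 7.79 and 7.11 in virgins and at 8.69, 9.20 and 9.25 at Lac10 and rose by 1.91 (SE 0.47, adjusted p = 0.0164).

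Each of these 4 calls ended when single virgin or Lac10 arrays of wild type were left out. The highest adjusted p was 0.0884 for Fn1, 0.112 for Dcn, 0.0981 for Thbs2 and 0.0784 for Tnc, and the number called was 0 without V replicate 3 or Lac10 replicate 2, 1 without V replicate 2, 2 without Lac10 replicate 1, 8 without dp18 replicate 1 and 10 without V replicate 1. For these single arrays left out the share of all genes called was not counted. Without the 2 arrays whose casein level goes against the label Fn1 was called lower and Tnc higher, against 0.932% and 5.49% of all genes. With the 3 arrays of lowest correlation left out, 10 fell and 2 rose, against 8.46% and 19.4% of all genes. With all 24 arrays 11 members were lower and 1 higher without overlap, compared with 10.9% and 26.4% of all genes. Pdgfra was at 8.37, 9.69 and 8.71 in virgins and at 7.40, 7.43 and 8.01 at Lac10 (-1.31, SE 0.41, adjusted p = 0.0601), Col1a1 at 9.92, 10.72 and 9.95 and then at 9.20, 9.10 and 9.70 (-0.86, SE 0.33), and Col3a1 at 9.32, 10.67 and 9.65 and then at 8.91, 9.01 and 9.10 (-0.88, SE 0.35).

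In mutants Col8a1 and Thbs1 fell from V to Lac10, with 2.59% of all genes called lower and 0.282% higher. The median of the 42 genes was -0.38 against -0.18 over all genes. Col8a1 was at 6.51, 6.02 and 5.96 at Lac10 and fell by 1.51 (SE 0.32, adjusted p = 0.0208), a call that ended without mutant V replicate 1 or mutant Lac10 replicate 2 (adjusted p up to 0.103). Thbs1, a thrombospondin that activates TGF-beta, was at 11.96, 11.78 and 11.85 in virgins and at 11.66, 8.23 and 9.84 at Lac10. The spread at Lac10 was wide, with the lowest value in replicate 2, the array of lowest correlation. It fell by 1.95 (SE 0.52, adjusted p = 0.0473), and the call was kept in 9 of 33 alternatives, with differences from -2.83 to -0.60 and an adjusted p of up to 0.324. The call of Thbs1 ended when any 1 of 19 single arrays was left out. These include mutant Lac10 replicates 2 and 3 and every mutant virgin array, but most came from groups outside this comparison. It also ended without the 3 arrays of lowest correlation, with array weights, with array-median centring, without the filter on low values and with a replicate block for wild-type arrays. The count of called members was 0 without mutant V replicate 1 or Lac10 replicate 2, 4 without wild-type dp18 replicate 1 and 6 without mutant Lac10 replicate 1. The share of all genes called without those single arrays was not counted. Without overlap 9 members were lower and 0 higher, against 18.3% and 4.04% of all genes. Tnc was at 7.91, 8.63 and 8.25 in mutant virgins and at 8.79, 6.03 and 7.72 at Lac10 (-0.75, SE 0.47), whereas in wild type it rose.

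**Figure D5:**
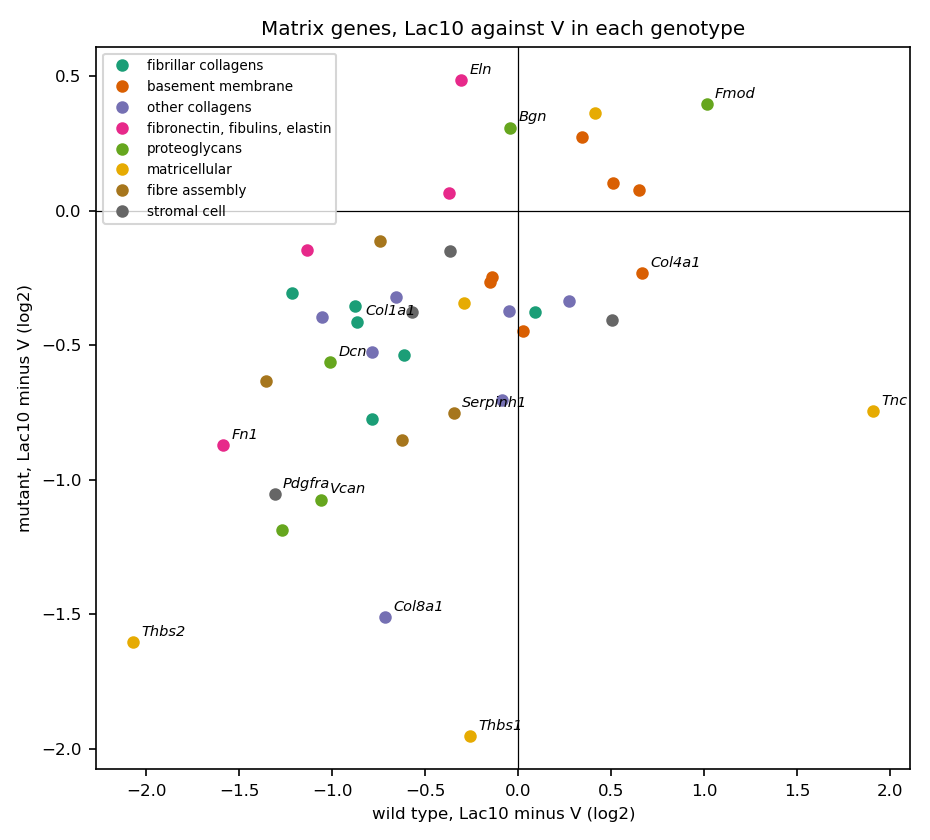
Log2 difference of Lac10 against V in wild type (x axis) and in mutants (y axis) for 42 matrix genes, coloured by role, 3 arrays per group. Thbs2, Fn1, Pdgfra and Vcan lie low on both axes, whereas Tnc stands at 1.91 in wild type and at -0.75 in mutants.

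Basement membrane genes and fibrillar collagens had opposite signs in wild type over this span, a difference that was not tested. From V to Lac10 in wild type, 5 of 7 basement membrane members were higher with a median of 0.34, whereas 5 of 6 fibrillar collagens were lower with a median of -0.83. Housekeeping centring moved these medians to -0.03 and -1.20 and called 5 of 6 fibrillar collagens lower (all but Col5a3), among them Col1a1 (adjusted p = 0.018), and no basement membrane gene. Array weights called the same 5 lower and Col4a1, Col4a2 and Lamb1 higher, in a fit that called 18.2% of all genes lower and 35.8% higher. In mutants the medians were -0.23 and -0.39 (0.04 and -0.12 with that centring), and without these changes of setting none of these 13 genes was called in either genotype. Col4a1 was at 7.97, 9.22 and 8.43 in wild-type virgins and at 8.82, 9.57 and 9.21 at Lac10 (0.66, SE 0.43), and in mutants at 8.12, 8.57 and 8.56 and then at 7.86, 7.79 and 8.90 (-0.23, SE 0.43). Endothelial genes, whose vessels also make type IV collagen, had a median of 0.61 in wild type and 0.55 in mutants over this span, with list means of 7.37 to 9.29 in wild-type virgins and 8.50 to 9.38 at Lac10. Their part in these values was not tested.

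For the wider pathway from V to dp12, called genes were counted with the genotypes averaged, where 13.0% of all genes rose and 2.80% fell (4.46% and 20.0% with housekeeping centring). Of 18 other basement membrane genes 2 rose, Lama1 by 1.73 (adjusted p = 0.000587) and Lamb3, of the laminin under epithelium, by 1.15 (adjusted p = 0.000861). Of 26 collagen processing genes 2 rose, the prolyl hydroxylase gene P3h2 by 1.18 and Sec23a, of vesicle export, by 0.73, and 2 fell, Loxl4 and P4ha1. Of 19 matrix receptors 4 fell: among them the collagen receptor gene Ddr2 fell by 1.07, and the integrin genes Itga11 and Itgb3 differed by -0.82 and -0.95. Of 19 TGF-beta genes 1 fell, Ltbp4 (-0.83). Of 22 further fibroblast genes 6 fell and none rose, among them Gsn (-1.23, adjusted p = 0.000354), Dpt (-1.25) and Ogn (-1.15). Within wild type 2 fibroblast genes fell, 2 other basement membrane genes rose, and P3h2 (1.41, adjusted p = 0.0388) and the collagen receptor gene Ddr1 (1.34, adjusted p = 0.0404) rose. Within mutants 3 fibroblast genes and 2 receptors fell.

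From V to Lac10, averaged over the genotypes, where 3.53% of all genes fell and 3.07% rose, 5 of the 22 fibroblast genes fell, among them Dpt (-1.06), Gsn (-0.85) and the microfibril gene Mfap2 (-0.82). Of 19 matrix receptors 5 fell, among them the integrin gene Itga2 (-1.97, adjusted p = 0.00396), the hyaluronan receptor gene Cd44 (-1.61) and the syndecan gene Sdc1 (-0.64). Of 18 other basement membrane genes 2 rose, Lama1 by 1.34 and Col17a1, the hemidesmosome collagen of basal cells, by 0.85. Of 19 TGF-beta genes 1 fell, the target gene Ccn2 (-1.11), and none of the 26 collagen processing genes was called. In wild type 6 fibroblast genes fell and 3 other basement membrane genes rose. Also in wild type the integrin genes Itga8 (1.56, adjusted p = 0.038) and Itga6 (0.75, adjusted p = 0.0498) rose, P3h2 rose by 1.52 and the procollagen protease enhancer gene Pcolce2 fell by 1.16. In mutants 3 receptors fell and no fibroblast or basement membrane gene of these lists was called. Milk protein and secretory genes had list means of 8.19 to 8.49 in wild-type virgins and 10.99 to 12.00 at Lac10, and adipocyte genes 6.72 to 7.69 and 7.52 to 8.21. Their part in these values was not tested.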

How the data were processed

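RNA was measured on 24 single-colour arrays, and the authors deposited log2 RMA expression values (range 1.98 to 13.5), per the submitters' processing notes, which give no RMA version. Quantile normalization is part of RMA, and it hides changes common to most genes. No aligner or build applies; the annotation's 41345 probe sets hold 23521 with 1 symbol, 1814 with several and 16010 with none, and only the first were named. A gene with several probe sets (7 of the matrix genes) was represented by the one of highest mean. Genes with at least 3 arrays above the array median were kept.

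Each gene was fitted with limma 3.58.1 (R 4.3.3), 1 mean per group of 3 arrays, with 16 residual and 4.35 prior degrees of freedom and Benjamini-Hochberg adjustment. The fit was tested on simulated data with independent noise and, for each gene, the same spread in every group. That test cannot speak for arrays whose genes shift together or whose groups differ in spread, as they do here. The alternatives were the mean of all probe sets, no filter, centring on housekeeping genes or on the array median, a trended variance, weights per array, a replicate block, 3 arrays of correlation under 0.9 left out, and each array left out; those added after seeing the data are the 6 dp12 arrays alone, the count without overlap and 2 arrays left out for their casein level.

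Members, lists and tests were chosen with earlier results of these data known. Values in every array are given for up to 3 members of smallest p per direction among those called in a comparison, or the 2 of smallest p where none was called, and for Col1a1, Col3a1, Col4a1, Fn1, Dcn, Lox, Tnc and Pdgfra; of other lists, up to 3 called genes per comparison. Others were named after their values were seen. Promoter sequences come from RefSeq (GRCm38.p6).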

Additional observations from a re-analysis of the deposited data

How the results depend on the processing

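Of 628 recomputed counts of members, 549 equalled the main count or stayed within 1.5 times it. Many of these main counts were 0 and stayed at 0, and the dp12 count without overlap cannot fall when an array is left out. The share of 549 therefore does not measure stability. Of 660 recomputed values of called members 593 kept the call, 67 lost it and 0 reversed. With array weights the members called were 5 for genotype at V, 5 at dp12, 6 at Lac10, 12 for the unequal genotype effect, 14 and 26 in wild type for V to dp12 and V to Lac10, 10 each for its dp12 to dp18 and its dp18 to Lac10, 11 and 1 in mutants for V to dp12 and V to Lac10, and 18 and 15 on average for the same and 7 for the average dp12 to dp18. That fit called many genes: 36.6%, 0.952%, 21.7% and 39.3% of all genes in the 4 tests of genotype named first, 63.9% and 54% in wild type for V to dp12 and V to Lac10, 18.1% and 25.6% for its later steps, 26.9% and 10.6% in mutants, and 60.2%, 25.4% and 16.8% on average. Without the 3 arrays of low correlation they were 3 for genotype at V, 3 and 12 in wild type and 6 and 1 in mutants for V to dp12 and V to Lac10, and 9 and 9 on average. Of all genes that fit called 14.9% higher and 5.28% lower for genotype at V. For V to dp12 it called 31.6% and 9.52% in wild type, 7.32% and 3.22% in mutants, and 28.5% and 10.9% on average. For V to Lac10 it called 19.4% and 8.46% in wild type, 0.328% and 2% in mutants, and 9.54% and 6.24% on average. With housekeeping centring they were 15 in wild type for V to Lac10, 7 in mutants for V to dp12, and 16 and 14 on average for V to dp12 and V to Lac10. The shares of all genes under that centring stand beside each of these comparisons above. Mutant V to Lac10 gave 1 with array-median centring and with no filter, where 151 and 319 genes were called in all. Without the 2 arrays against their casein level, wild-type V to Lac10 gave 2 and average dp18 to Lac10 gave 1.

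With wild-type numbers as a replicate block, the count was 8 for wild-type V to Lac10, 10 for the average V to Lac10, 4 for mutant V to dp12 and 1 for mutant V to Lac10. In that order the fit called 1001, 879, 603 and 284 of all genes, against 1103, 1006, 677 and 438 without the block. The 18 same-number pairs of wild-type arrays had correlations of deviations from -0.387 to 0.31, with 4 above 0.1. With 3 arrays per group this cannot settle whether the numbers pair the samples, and the labels do not say what the numbers mean. Leaving out single arrays gave 0 to 3 for wild-type V to dp12, 0 to 10 for V to Lac10, 1 to 4 and 0 to 6 for the same in mutants, 3 to 7 and 5 to 14 on average, 0 to 2 for genotype at Lac10, 0 to 1 for average dp18 to Lac10, and 24 to 36 for the dp12 count without overlap. The dp12 count without overlap cannot fall when an array is left out. For single arrays left out the share of all genes called was not counted, so these counts of members have no background. The cause of these shifts in the counts was not tested. Housekeeping centring turned the sign of the members' median for genotype at dp18 (-0.12) and Lac10 (0.34), wild-type V to dp12 (-0.34), wild-type dp12 to dp18 (0.05), wild-type dp18 to Lac10 (-0.25), mutant dp18 to Lac10 (0.18) and average dp12 to dp18 (0.14).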
